A study of Homo sapiens with 18 samples.

Results

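The response of VCaP cells to the synthetic androgen R1881 was described gene by gene, as the signal with R1881 minus the signal with vehicle (ethanol) in arrays that carried the same siRNA. VCaP is an established line from a bone metastasis of human prostate cancer. Its 6 arrays, of 18 in the series, formed 3 pairs. One pair received a control siRNA (siControl), one siCTBP1-AS #2 against CTBP1-AS, an antisense RNA of the CTBP1 locus, and one siPSF against the RNA-binding protein PSF, which SFPQ encodes. R1881 was given at 1 nM, and there was 1 array for each siRNA and treatment. All VCaP cells, vehicle arrays included, had received siRNA 48 h ahead of hormone and spent 3 days in medium with 5% charcoal-treated serum, which holds little steroid. The other 12 arrays came from LNCaP, another androgen-responsive prostate cancer line, in 6 pairs: siControl with siCTBP1-AS at 10 nM R1881 (set 1), siControl with siCTBP1-AS #2 at 1 nM (set 2) and siControl with siPSF at 10 nM (set 3), in 2.5% charcoal-treated serum. The labels thus give VCaP and set 2 the same name for the siRNA against CTBP1-AS and set 1 another; the VCaP one is written siCTBP1-AS below. For how long hormone was present is not stated in the sources used here. A single control condition was therefore not repeated: the 3 pairs differ in siRNA, and the labels do not say that arrays came from separate cultures. The p-values below rest in part on the spread of the response between these 3 pairs, which may be technical or may come from the siRNAs. The test in limma also draws each gene's spread toward that of all genes, with a prior of 5.62 degrees of freedom against 2 from the pairs. A gene with unlike pairs can therefore have a smaller SE than its own 3 changes would give.

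The androgen receptor is a transcription factor that moves to the nucleus and binds DNA once it holds an androgen. In luminal prostate cells it raises genes for secreted proteases, lipid synthesis and protein folding, and it can also lower genes, among them genes of cell division. VCaP carries extra copies of the receptor gene and a fusion that puts the ETS factor ERG under an androgen-controlled promoter. Strong androgen is known to slow the division of such cells.

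Signals are log2 values on one scale for the 6 VCaP arrays, so a difference of 1 means 2-fold more or less signal, and differences are compared between genes while signals of different genes are not. Array medians were between 6.22 and 6.28 and arrays correlated at 0.982 to 0.992 across genes, with no pair identical. The number of arrays limits the precision. SFPQ, the target of siPSF, read 11.02 and 11.26 in the vehicle arrays of siControl and siCTBP1-AS and 9.70 in that of siPSF, and 11.16, 11.15 and 9.61 in the R1881 arrays. SFPQ itself did not pass the test for R1881, with a mean change of -0.02. CTBP1-AS was not analysed here, so that knockdown has no check. Markers of the line were high: ERG read 9.01 to 10.38 and KLK3 10.06 to 10.89 in the vehicle arrays. Among markers of other cells, 0 of 3 tested basal epithelial markers and 0 of 1 endothelial marker passed the test for R1881. Of all genes 29.5% passed (13.7% higher and 15.8% lower). Either list names 6 genes, so these counts are too small to describe other cells. Of 4 leukocyte markers LYZ was higher (mean change 0.41), and of 6 fibroblast and smooth muscle markers LUM and ACTA2 were lower. In a bulk array, fewer cells of a kind and less RNA per cell cannot be told apart.

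Of 13813 genes tested, 4074 (29.5%) passed the paired test at an adjusted p of 0.05 in limma: 1896 were higher with R1881 (13.7%) and 2178 lower (15.8%). All but 2 of them, 4072, moved the same way in all 3 pairs. Direction alone was the same in all 3 pairs for 4128 genes higher (29.9%) and 4149 lower (30%), so agreement in sign was common. In 4937 genes (35.7%) the 3 R1881 arrays did not overlap the 3 vehicle arrays. Without the siRNA as a block, that is without pairing, 2227 genes passed. Leaving out the siPSF pair left 2597. The median change over all genes was 0.00.

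A stricter group moved by over 1 log2 unit in the same direction in every pair. It held 157 genes higher (1.14% of those tested) and 171 lower (1.24%), and all 328 passed the test. Over 2 units in every pair were 23 genes higher and 10 lower, and over 3 units STEAP4 and ORM2 higher and WNT2 and LUM lower. Just inside the limit of 1 were ZNF702P and LOX, whose weakest pair was 1.01 and 1.00, and just outside it NHERF2 at 0.99. The plot of pair against pair shows these genes at both ends of one diagonal cloud. Across the 13813 genes the changes of any pair correlated with those of another at 0.801 to 0.817, a description only, since genes are not independent replicates. Only 1 gene was over 1 higher in one pair and over 1 lower in another.

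**Figure D1:**
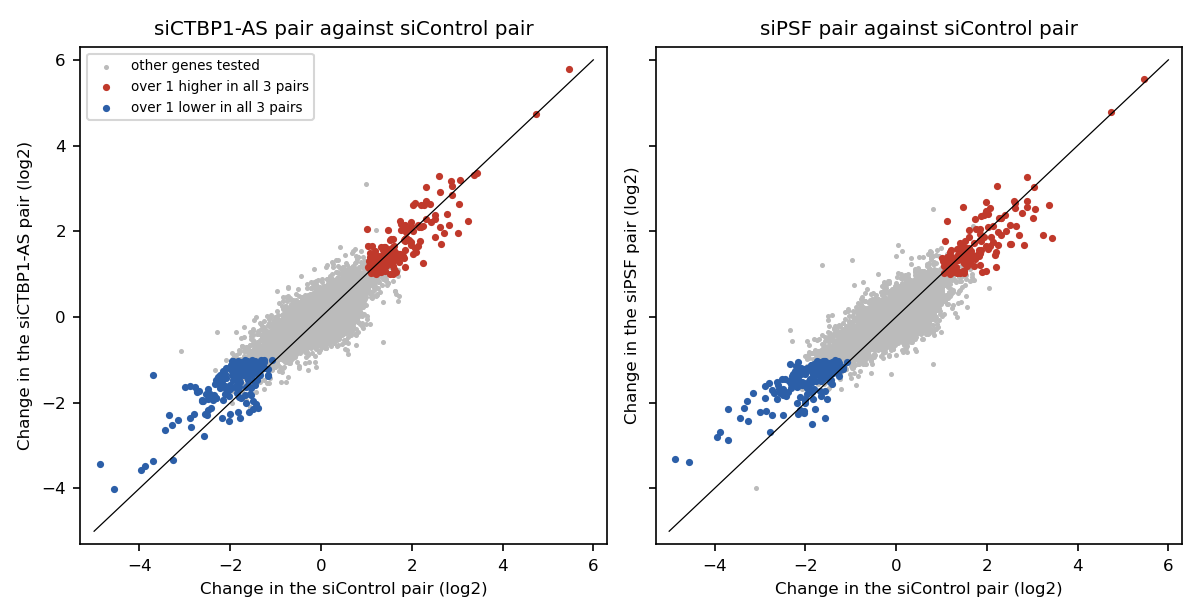
Change with R1881 (log2 signal) in the siCTBP1-AS pair (left) and the siPSF pair (right) against the change in the siControl pair, 1 point per gene tested, with the line of equal change. Red and blue points are the 157 genes higher and 171 genes lower by over 1 in all 3 pairs; blue points lie mostly above the line, so the siControl pair fell furthest.

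Ranked by the weakest of the 3 pairs, the higher genes were led by STEAP4, a metalloreductase of the cell membrane. In the order siControl, siCTBP1-AS, siPSF, which holds for every set of 3 values below, its vehicle signals were 6.85, 5.76 and 5.55 and its R1881 signals 12.31, 11.55 and 11.10. The lowest R1881 array lay far above the highest vehicle array, and the mean change was 5.60 (SE 0.10, 48.5-fold, adjusted p = 3.14e-07). ORM2, an acute-phase plasma protein, read 5.15, 4.36 and 4.90 with vehicle and 9.88, 9.09 and 9.67 with R1881. Its 3 changes, 4.73, 4.73 and 4.77, lay within 0.04 of each other, and its near-identical relative ORM1 can share its probes. EAF2, a partner of the ELL elongation factors, rose by 2.88, 3.07 and 3.26.

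MSMB, a major protein of seminal plasma, went from 4.36, 4.46 and 4.42 to 7.41, 7.10 and 7.44, and its arrays of either treatment were tightly grouped. The mean change was 2.90 (SE 0.11, adjusted p = 2.09e-05). CST2, a secreted cystatin, rose by 3.37, 3.31 and 2.61, and CST1 by 3.44, 3.35 and 1.84, a pair of near-identical genes whose probes may not separate them. SLC45A3, the prostate membrane protein prostein, rose from 10.06, 8.74 and 9.84 to 12.66, 12.03 and 12.55. ADGRG2, an adhesion receptor of the male tract, rose by 2.89, 2.85 and 2.71.

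The rest of the 15 highest were ENTREP1, WIPI1, PLA2G4E, RFPL2, BMPR1B, SLC26A2, MYOF and EFCAB12, with mean changes from 2.31 to 2.92. WIPI1 binds membrane lipids in autophagy, PLA2G4E is a phospholipase, BMPR1B a receptor for bone morphogenetic proteins and SLC26A2 a sulfate transporter. MYOF, a protein of membrane repair, gave 2.32, 2.30 and 2.32 in the 3 pairs. RFPL2 rose by 2.54 on average but has close relatives such as RFPL3.

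**Figure D2:**
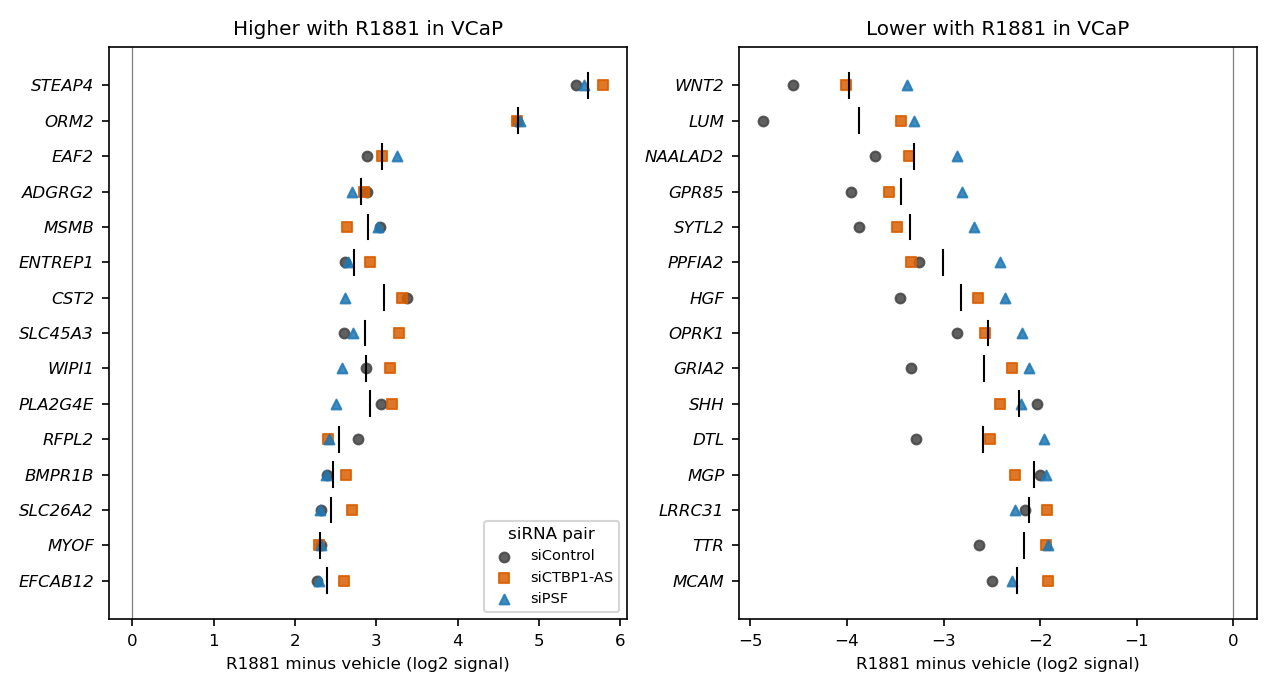
Change with R1881 (log2 signal) in each siRNA pair for the 15 genes highest and the 15 genes lowest by their weakest pair; circles are siControl, squares siCTBP1-AS, triangles siPSF, and the bar is the mean. The higher genes hold their 3 points close together, while the lower genes spread more, with siControl most often furthest from 0.

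On the other side, WNT2, a secreted WNT ligand, fell furthest. It read 9.66, 10.02 and 9.02 with vehicle and 5.10, 6.01 and 5.64 with R1881. Every R1881 array was far below every vehicle array, for a mean change of -3.98 (SE 0.20, 15.8-fold lower, adjusted p = 3.33e-05). LUM, lumican of the extracellular matrix, went from 9.74, 8.58 and 10.10 to 4.86, 5.15 and 6.80. LUM is also on the list of fibroblast and smooth muscle markers. Of the 6 members tested, LUM and ACTA2 were lower (15.8% of all genes were). ACTA2, a smooth muscle actin, had a mean change of -0.37 (limma adjusted p = 0.036). COL1A1 (0.01), COL1A2 (0.02), COL3A1 (0.09) and DES (0.10) did not pass. The mean signal of these 6 markers, LUM included, was 6.49 to 6.64 with vehicle and 5.75 to 6.03 with R1881. LUM had a mean change of -3.87 and the median change of the 6 was 0.02, so the lower mean is no result separate from LUM. The part of such cells in the LUM result was not tested.

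HGF, the ligand of the receptor MET, went from 11.46, 10.24 and 11.55 to 8.01, 7.60 and 9.19 (mean change -2.82, SE 0.19, adjusted p = 9.01e-05). MET went from 7.58, 7.56 and 6.96 to 4.78, 5.31 and 5.43, so both partners fell in all 3 pairs. SHH, a hedgehog ligand, fell by 2.03, 2.42 and 2.20 on the log2 scale.

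NAALAD2, a peptidase, had changes of -3.71, -3.35 and -2.86, and GPR85, an orphan receptor, of -3.96, -3.57 and -2.81. SYTL2, which tethers secretory vesicles, fell by 3.35 on average and PPFIA2, a scaffold of synapses, by 3.01. OPRK1, the kappa opioid receptor, and GRIA2, a glutamate receptor subunit, had mean changes of -2.54 and -2.58. MGP, an inhibitor of calcification, LRRC31, TTR, the carrier of thyroid hormone, and MCAM, an adhesion molecule, had mean changes from -2.24 to -2.07. All the 15 lowest genes had R1881 arrays that lay wholly below the vehicle arrays. Their choice by a large fall in the weakest pair favours this, and in 35.7% of all genes the treatments did not overlap.

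Other genes over 1 in all 3 pairs fall outside the gene lists and were picked here, for known roles, after their values were seen. SLC2A3, a glucose transporter, went from 5.98, 6.24 and 6.01 to 8.05, 8.91 and 8.56, and LIPG, an endothelial-type lipase, rose by 3.24, 2.24 and 1.91. SOCS2, a brake on cytokine signalling, TIPARP and the transcription factors ZBTB16 and KLF15 rose by 2.03, 1.62, 1.38 and 1.44 on average. IL20RA, a cytokine receptor chain, rose by 2.42, 2.23 and 2.00, while the LNCaP pairs gave 0.17 to 0.64. MME, the cell surface peptidase neprilysin, rose by 1.61, 1.54 and 2.04, while its 6 LNCaP pairs were all slightly below 0, at -0.37 to -0.12 (difference 1.94, limma adjusted p = 1.08e-05). AGR2, a secreted disulfide isomerase, rose by 1.85, 1.83 and 1.94.

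Lower genes were picked in the same way. ALB, serum albumin, went from 10.95, 8.89 and 11.25 to 8.99, 7.53 and 9.60. Its siCTBP1-AS arrays were lowest under both treatments, so the treatments overlapped although each pair fell by 1.96, 1.36 and 1.66. A1CF, a cofactor of RNA editing, had changes of -2.88, -1.62 and -1.62, CDH17, an intestinal cadherin, of -1.83, -2.22 and -1.91 and REG4, a secreted lectin, of -2.11, -1.33 and -1.86. PLA2G2A, a secreted phospholipase, fell from 11.55, 11.86 and 11.50 to 9.13, 9.75 and 9.66. LTBP1, which stores latent TGF-beta in the matrix, and PTGER2, a prostaglandin receptor, fell by 2.21 and 1.86 on average.

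**Figure D3:**
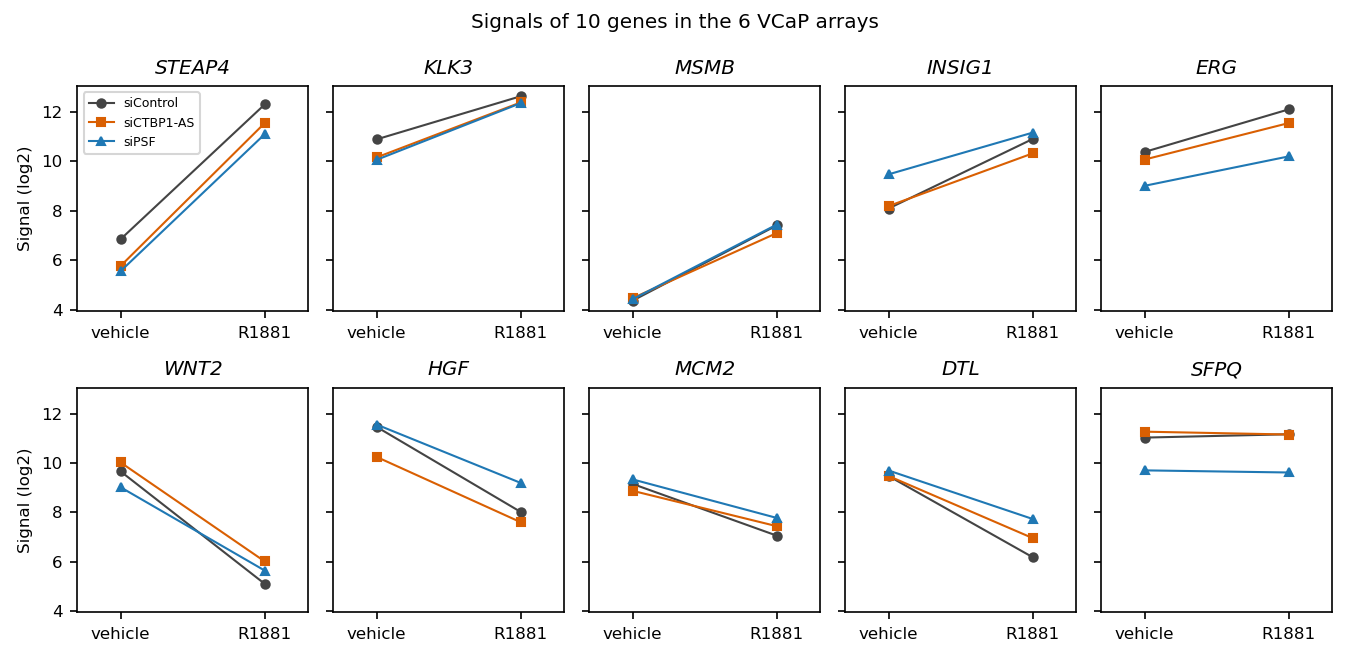
Signal (log2) of 10 genes in the vehicle and R1881 arrays of VCaP, with a line joining the 2 arrays of each siRNA (circles siControl, squares siCTBP1-AS, triangles siPSF). STEAP4, KLK3, MSMB, INSIG1 and ERG rise and WNT2, HGF, MCM2 and DTL fall in all 3 pairs, while SFPQ is level and lower in both siPSF arrays.

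Known androgen-induced genes gave 20 of 24 tested members higher (13.7% of all genes were) and 0 lower, with a median change of 0.98. The list names 31 genes, of which 25 had an array cluster of their own. Members of this list and of those below were chosen with earlier results of these data known. Their counts beside the shares of all genes are therefore descriptions. KLK3, which encodes prostate-specific antigen, went from 10.89, 10.16 and 10.06 to 12.64, 12.39 and 12.36. Its mean change was 2.09 (SE 0.13, 4.26-fold, adjusted p = 6.66e-05), and vehicle and R1881 arrays were well apart. Its neighbours KLK2 and KLK4, related proteases, rose by 0.82 and 1.46. LIFR, a cytokine receptor, rose by 2.14, 2.15 and 2.12, and ABCC4, an efflux pump, by 1.60, 1.66 and 1.86. GNMT, which uses up methyl donors, rose by 2.15 on average and SLC26A3, an anion exchanger, by 2.63. NDRG1, a stress-responsive protein, rose by 0.80, CAMKK2, a kinase that feeds AMPK, by 0.92, and PMEPA1, which dampens SMAD signalling, by 1.07.

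Members that did not pass were TARP (mean change 0.02), PLPP1 (0.07), ZBTB10 (0.24) and HPGD (0.61). HPGD, which inactivates prostaglandins, gave 0.34, 0.12 and 1.37, so the siPSF pair alone carried most of its change. MAF, a transcription factor that did pass, was also uneven, at 1.02, 1.67 and 0.35.

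All 8 tested members of the androgen-repressed list were lower (15.8% of all genes were), with a median of -1.79. The choice of this list with earlier results known makes that count a description too. CCN3, a matricellular protein, went from 10.37, 7.86 and 8.94 to 6.67, 6.52 and 6.80. Its R1881 arrays were level and its vehicle arrays were not, so the changes of -3.69, -1.34 and -2.14 differed mostly through the starting signal. SI, sucrase-isomaltase, fell by 2.34 on average, DDC, which makes dopamine and serotonin, by 1.39, CDH2, N-cadherin, by 1.24 and CAMK2N1, an inhibitor of CaM kinase, by 0.78. With the lowest 50% of genes left out, 4 were lower, a count that leaves out members below that filter as untested. Of the 15 genes on the list, 10 had an array cluster of their own; UGT2B17 (changes of -2.39, -3.11 and -2.45) and BCL2 (0.28, -0.07 and 0.02) were too low in signal to be tested.

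DNA replication genes fell together. Of 40 tested genes of the replication machinery, 38 were lower (15.8% of all genes were) and 0 higher, with a median of -1.25, and 21 fell by over 1 in every pair. The list names 41 genes, and no member with a cluster of its own was lost to the filter. The pairs differed in depth: the list's median was -1.54 with siControl, -1.15 with siCTBP1-AS and -1.05 with siPSF. The list's mean signal was 8.94, 8.87 and 9.18 with vehicle and 7.43, 7.78 and 8.09 with R1881. The siControl array with R1881 was the lowest and the siPSF array the highest. With 1 array each, this order between siRNAs has no test.

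DTL, which directs the licensing factor CDT1 to destruction, fell furthest in this list. It read 9.47, 9.47 and 9.69 with vehicle and 6.18, 6.95 and 7.73 with R1881, a mean change of -2.59 (SE 0.22, 6.02-fold lower, adjusted p = 0.000212). The replicative helicase fell as a whole: MCM2, MCM3, MCM4, MCM5, MCM6 and MCM7 had mean changes of -1.70, -1.45, -2.02, -1.52, -1.75 and -1.18. MCM2 went from 9.15, 8.87 and 9.33 to 7.05, 7.44 and 7.77. No R1881 array of any of these subunits reached its vehicle arrays, while in 35.7% of all genes the treatments did not overlap.

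Factors that load and start the helicase fell with it, as CDC45 by 1.73, MCM10 by 1.89, CDC6 by 1.26 and ORC1 by 1.40 on average. PCNA, the sliding clamp, went from 10.30, 10.34 and 10.54 to 8.41, 9.04 and 9.09. The primase subunit PRIM1 had a mean change of -1.79 and CLSPN, a mediator of the replication checkpoint, of -1.92. TYMS, which makes thymidylate, fell by 1.82, and the ribonucleotide reductase subunits RRM1 and RRM2 by 1.10 and 1.01. The polymerase subunits POLA1 and POLE fell least of those that passed, along with CHAF1A, with mean changes of -0.63, -0.43 and -0.66. GINS3 (-0.31) and the kinase gene CDC7 (-0.26) did not pass.

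Of 17 tested regulators of the step into S phase, 12 were lower (15.8% of all genes were) and 1 higher (13.7%), with a median of -0.66. CCNE2, cyclin E2, went from 9.66, 9.91 and 9.95 to 7.82, 8.22 and 8.69. MYC had a mean change of -1.53, the repressors E2F7 and E2F8 of -1.47 and -1.26, and E2F1 of -0.95. CCND3, cyclin D3, was the member that rose (0.48), and CDK2 (-0.10), RBL2 (-0.04), RB1 (0.13) and CCND1 (0.24) did not pass. Among 7 inhibitors of cyclin-dependent kinases, CDKN1A, which encodes p21, rose from 8.02, 8.68 and 8.22 to 8.91, 9.35 and 8.77 (mean change 0.70, adjusted p = 0.00207). CDKN2A and CDKN3 fell, by 0.67 and 0.46.

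Mitosis genes also fell, with a smaller median. Of 31 tested, 27 were lower (15.8% of all genes were) and 0 higher, with a median of -0.64 and none over 1 in every pair. NDC80, of the kinetochore, fell by 1.36, 1.21 and 0.95, CDK1 by 0.88 on average and MKI67, the Ki-67 proliferation marker, by 0.50. CCNB1, BIRC5, CDC20 and PLK1 did not pass, at -0.22, -0.22, -0.17 and -0.17.

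E2F factors drive many replication genes and the androgen receptor binds DNA as a dimer, so promoter windows were searched for letters typical of each. The windows run from 250 bases before to 50 after each gene's start in RefSeq (GRCh38.p14), and 10908 of the 13813 tested genes have one. The letters were TTTCCCGC and TTTGGCGC for E2F, and AGAACA for the androgen element, each searched on both strands. The full androgen element was taken as AGAACA, any 3 bases and TGTTCT, so it contains the shorter letters. The windows shown are all from genes with a match: KLK3, the best-known target that rose, and DTL, MCM6 and PCNA, replication genes that fell. Each reads 5′ to 3′ along its gene with the matched letters in capitals: KLK3 (chr19:50854665-50854964, plus strand), DTL (chr1:212035498-212035797, plus strand), MCM6 (chr2:135876394-135876693, minus strand) and PCNA (chr20:5126573-5126872, minus strand).
KLK3: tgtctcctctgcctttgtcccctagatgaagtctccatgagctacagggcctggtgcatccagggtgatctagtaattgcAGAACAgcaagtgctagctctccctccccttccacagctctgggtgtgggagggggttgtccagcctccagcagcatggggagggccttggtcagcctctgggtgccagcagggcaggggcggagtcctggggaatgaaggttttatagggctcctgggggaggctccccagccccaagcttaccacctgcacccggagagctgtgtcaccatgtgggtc
DTL: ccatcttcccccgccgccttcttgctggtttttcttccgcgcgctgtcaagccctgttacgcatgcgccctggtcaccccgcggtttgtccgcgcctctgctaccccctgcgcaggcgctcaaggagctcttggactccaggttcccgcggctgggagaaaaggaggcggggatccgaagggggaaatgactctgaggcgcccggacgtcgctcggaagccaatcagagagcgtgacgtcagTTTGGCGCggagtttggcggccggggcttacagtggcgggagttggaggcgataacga
MCM6: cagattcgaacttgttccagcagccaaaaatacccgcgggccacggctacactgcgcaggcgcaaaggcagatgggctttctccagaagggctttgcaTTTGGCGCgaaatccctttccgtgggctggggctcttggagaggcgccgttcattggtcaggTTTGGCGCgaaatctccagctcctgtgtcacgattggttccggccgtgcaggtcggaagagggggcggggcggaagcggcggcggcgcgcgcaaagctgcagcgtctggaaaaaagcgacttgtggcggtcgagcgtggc
PCNA: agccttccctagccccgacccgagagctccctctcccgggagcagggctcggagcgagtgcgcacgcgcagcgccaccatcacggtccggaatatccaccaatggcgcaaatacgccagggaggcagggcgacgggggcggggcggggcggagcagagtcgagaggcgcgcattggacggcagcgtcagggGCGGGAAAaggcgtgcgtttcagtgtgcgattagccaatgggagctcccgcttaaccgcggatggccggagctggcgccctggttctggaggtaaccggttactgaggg
The KLK3 match begins at position -170 from the start, the DTL match at -8, the MCM6 matches at -152 and -90 and the PCNA match at -59.

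E2F letters stood in 18 of the 35 replication genes with a window (51.4%), against 379 of 10908 (3.47%) of all tested genes. MCM2, CDC45 and ORC1 were among the replication genes without them. The letters stood in 17 of 131 windows (13%) of the genes over 1 lower in all pairs and in 0 of 125 of the genes over 1 higher. These lower genes include 21 of the 40 replication genes, so the counts overlap. Among mitosis genes 1 of 25 windows (4%) held E2F letters. Androgen letters stood in 9 of 125 windows (7.2%) of the higher and 11 of 131 (8.4%) of the lower genes, against 962 of 10908 (8.82%) in all. The full element in its exact letters stood in 0 of 10908, so that form cannot tell groups of genes apart. Looser forms of the element were not searched. A match is a description of letters in a short window, not a bound site, and its absence says only that the letters are not in that window.

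Genes of lipid synthesis rose. Of 18 tested cholesterol synthesis genes, 16 were higher (13.7% of all genes were) and 0 lower, with a median of 0.87; 24 are listed. INSIG1, which holds back the SREBP factors when sterol is plentiful, went from 8.09, 8.19 and 9.48 to 10.91, 10.33 and 11.17. Its siPSF vehicle array started highest, and its changes were 2.82, 2.14 and 1.69 (mean 2.21, SE 0.19, adjusted p = 0.000237). STARD4, a sterol carrier, rose by 2.70, 1.96 and 1.91. The synthase HMGCS1 rose by 1.56, NSDHL by 1.46, IDI1 by 1.15 and LSS by 0.99 on average, and PMVK (0.28) and TM7SF2 (-0.03) did not pass.

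Of 17 tested fatty acid synthesis genes, 13 were higher (13.7% of all genes were) and 1 lower (15.8%), with a median of 0.65, and 7 were higher without the siRNA block. FASN, fatty acid synthase, went from 10.37, 10.20 and 10.73 to 11.91, 11.72 and 12.04, a mean change of 1.46. The desaturases FADS2 and SCD rose by 1.33 and 1.00 and ACLY, which supplies acetyl-CoA, by 0.86. ACACB, the mitochondrial acetyl-CoA carboxylase, fell by 0.45.

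Genes of the secretory pathway rose with them. Of 25 tested endoplasmic reticulum chaperones and unfolded protein response genes, 20 were higher (13.7% of all genes were) and 0 lower, with a median of 0.73. KDELR3, which returns chaperones to the reticulum, went from 7.06, 6.25 and 7.68 to 8.90, 8.03 and 9.25. Its changes of 1.84, 1.79 and 1.56 were alike although its starting signals were not. The cochaperones DNAJB9 and DNAJC3 rose by 1.52 and 1.34, the transcription factors CREB3L4 and CREB3L2 by 1.47 and 1.21, and the chaperone HSPA5 (BiP) by 0.48. ATF6, SEL1L, CANX, HSP90B1 and CALR did not pass, with mean changes of 0.15 to 0.24.

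Glycosylation enzymes went both ways, with 13 of 27 higher (all genes: 13.7%), 6 lower (15.8%) and a median of 0.27. CSGALNACT1, which starts chondroitin chains, rose by 2.31, 3.04 and 1.92, GNE, which makes sialic acid, by 1.37 and B4GALT1, a galactosyltransferase, by 1.17 on average. MAN1A1, a mannosidase, fell by 0.99. ST6GAL1, a sialyltransferase, passed as lower at -0.12, -1.17 and -1.33, so the siControl pair hardly moved. Without the siPSF pair 8 were higher, without the siCTBP1-AS pair 3 were lower, and without the siRNA block 8 were higher and 2 lower.

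**Figure D4:**
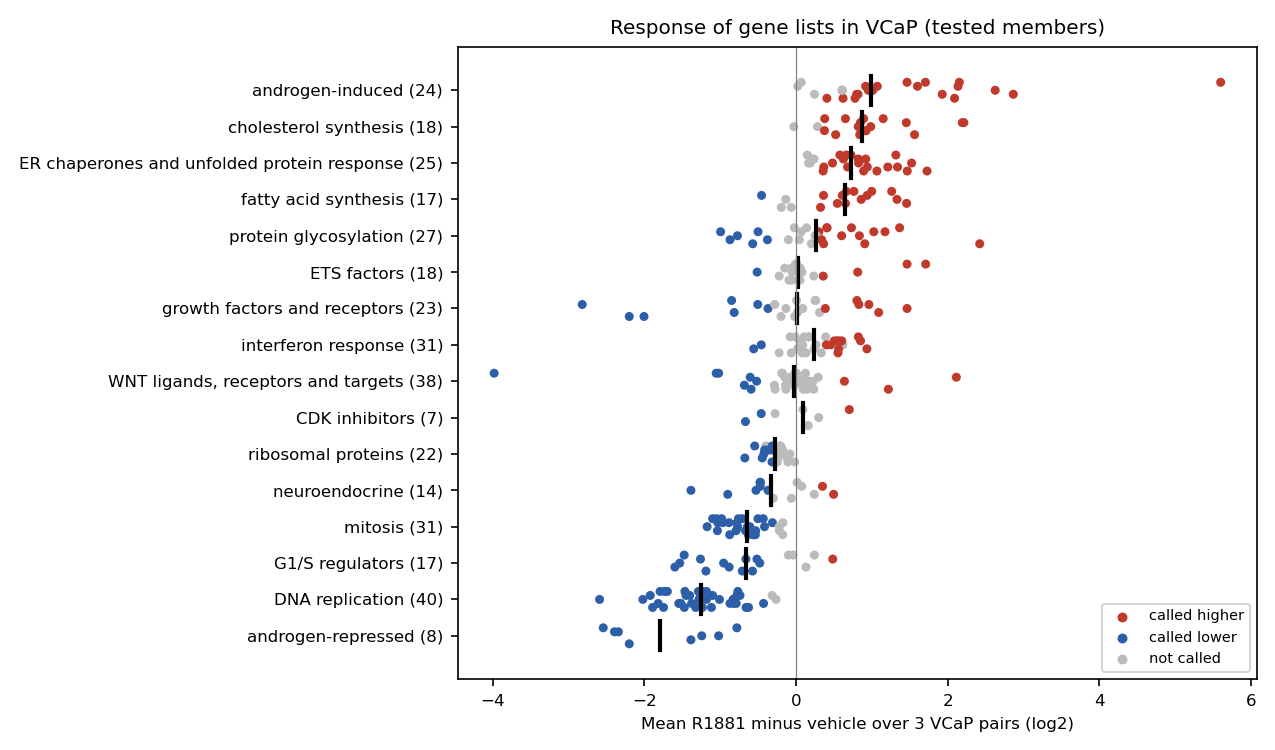
Mean change with R1881 over the 3 VCaP pairs (log2), 1 point per tested gene, for 16 gene lists with the number of tested genes in brackets; red genes passed as higher, blue as lower, grey did not pass, and black bars are medians. Replication genes lie almost all below 0 (median -1.25), and cholesterol synthesis genes almost all above it (median 0.87).

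Of 18 tested ETS factors, 4 were higher (13.7% of all genes were) and 1 lower (15.8%), with a median of 0.02. ERG went from 10.38, 10.07 and 9.01 to 12.11, 11.55 and 10.20. Both siPSF arrays read lower than the others of their treatment, and the changes were 1.72, 1.48 and 1.19 (mean 1.46, SE 0.12, adjusted p = 0.000193). SPDEF, an ETS factor of secretory epithelium, rose by 1.71, ELF2 by 0.81 and ELK4 by 0.36, and ELK3 fell by 0.51. Without the siRNA block 2 were higher. Of 12 luminal prostate genes, 4 were higher and 1 lower, against the same shares of all genes: the keratins KRT19, KRT18 and KRT8 rose by 2.08, 0.78 and 0.99 and SPDEF as above, and GATA2, a partner of the receptor, fell by 0.54. FOXA1 (0.17), HOXB13 (0.19) and EPCAM (-0.15) did not pass.

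Growth factors and their receptors showed 6 of 23 higher (all genes: 13.7%) and 7 lower (15.8%). Of the receptors, IGF1R rose from 10.73, 10.68 and 10.35 to 12.13, 12.04 and 11.98, and FGFR3 and EGFR rose by 1.09 and 0.96 on average. IGFBP3, which binds insulin-like growth factors, went from 9.67, 10.61 and 9.88 to 7.17, 8.92 and 8.06, and IGFBP5 and IGFBP2 fell by 0.85 and 0.81. In WNT signalling 3 of 38 were higher and 7 lower, a share of lower genes near the 15.8% of all genes. FZD5, FZD8 and FZD1, receptors, rose by 2.11, 1.22 and 0.64, and the ligands WNT2, WNT5A and WNT10B and the secreted antagonist WIF1 were among those that fell. With the lowest 50% of genes left out, 4 members of either list were lower, and members below that filter were not tested.

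Interferon-responsive genes differed between siRNAs more than between treatments. The mean signal of the 31 tested members was 6.46, 7.78 and 8.56 with vehicle and 6.63, 7.88 and 9.07 with R1881. Of these, 11 were higher (all genes: 13.7%) and 2 lower (15.8%) with R1881, with a median of 0.24, and 1 was higher without the siRNA block and 4 without the siPSF pair. CXCL11, a chemokine, gave 0.13, 0.88 and 1.54. Ribosomal protein genes showed 10 of 22 lower (all genes: 15.8%) and 0 higher, with a median of -0.27. That count was 1 without the siRNA block, 16 with an intensity trend and 6, 3 and 3 without the siControl, siCTBP1-AS or siPSF pair.

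Although directions agreed, the size of the response was not the same in the 3 pairs. The siControl pair had 301 genes over 1 higher and 613 over 1 lower, the siCTBP1-AS pair 278 and 291 and the siPSF pair 267 and 253. The imbalance lay on the lower side. Among the 171 genes over 1 lower in all pairs, the siControl pair fell furthest in 136, the siCTBP1-AS pair in 24 and the siPSF pair in 11, with medians of -1.83, -1.46 and -1.38. Among the 157 genes over 1 higher, the medians were 1.59, 1.54 and 1.50, and the siControl pair was largest in 67. With 1 array per siRNA and treatment these differences were not tested.

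The 5 genes over 1 on average with the widest range between pairs were UBTFL1, CCN3, TGFB2, SLC4A4 and PLK2. Their SEs lean on the spread of all genes: the 3 changes of TGFB2 and PLK2 had standard deviations of 1.09 and 1.07, and the SE was 0.33 for either. TGFB2, a growth inhibitor of many epithelia, had like vehicle signals of 5.95, 5.84 and 6.10 but R1881 signals of 6.94, 8.93 and 7.70. It passed the test with a mean change of 1.89 (SE 0.33, adjusted p = 0.00487), and its highest array was that of siCTBP1-AS. PLK2, a kinase, went from 8.65, 8.65 and 8.55 to 6.35, 8.31 and 8.00, so the siControl pair carried its fall (adjusted p = 0.0449). Without the siPSF pair PLK2 no longer passed (0.0764), nor without the siRNA block (0.146) or with no filter on low signals (0.0561). SLC4A4, a bicarbonate transporter, changed by -2.33, -1.23 and -0.31, and its adjusted p of 0.0187 became 0.0509 without the siCTBP1-AS pair. UBTFL1, which has near-identical copies, changed by -3.09, -0.79 and -3.99, and CCN3 is given above.

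The VCaP response was set against that of LNCaP by a test of the difference between the 3 VCaP and the 6 LNCaP pairs, with each pair as a block. The response differed in 1599 genes: in 725 (5.25% of 13813) it was more positive in VCaP and in 874 (6.33%) more negative. Cell line, serum and array set go together in this comparison and cannot be told apart. The dose of R1881 was also higher in 4 of the 6 LNCaP pairs, and the same as in VCaP in the other two. The count rests on the pairs used: it was 546 without the VCaP siControl pair, 867 without siCTBP1-AS, 1021 without siPSF, 482 with the array set in place of the replicate block, 748 with the 3 siControl LNCaP pairs and 773 with the 2 LNCaP pairs at 1 nM. Of the 328 genes over 1 in all VCaP pairs, 152 moved the same way in all 6 LNCaP pairs (101 higher and 51 lower) and 3 the opposite way in all 6. The LNCaP mean was over 1 in the same direction for 60 of the 157 higher and 18 of the 171 lower genes. Of these 328, 201 passed the test of the difference. Their choice by the VCaP response favours such a difference, so this count is a description.

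Some of the largest VCaP responses were near 0 in LNCaP. The filter for the test of the difference used the mean over all 18 arrays, so a gene with high signal in VCaP alone could pass it. LNCaP signals are not given here, so low signal and lack of response in LNCaP cannot be told apart for these genes. The WNT2 change was -4.56, -4.01 and -3.38 in VCaP and between -0.23 and 0.40 in the LNCaP pairs, a difference of -4.04 (SE 0.23, adjusted p = 8.18e-06). HGF changed by -0.30 to 0.37 in LNCaP, and its difference was -2.80. MSMB and CST2 were 2.37 and 2.99 more positive in VCaP, with LNCaP pairs of 0.01 to 0.83 and -0.22 to 0.43. For ERG, which LNCaP does not carry as a fusion, the LNCaP pairs lay between -0.31 and 0.26 and the difference was 1.46 (SE 0.14, adjusted p = 0.000126).

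Other genes responded in LNCaP and little in VCaP. TARP, whose transcript lies in the T cell receptor gamma locus and shares sequence with it, had LNCaP changes of 2.58 to 5.21 against 0.04, -0.42 and 0.45 in VCaP, a difference of -4.35 (SE 0.46, adjusted p = 0.000212). Its VCaP signals were 12.65, 12.24 and 12.40 with vehicle and 12.69, 11.82 and 12.86 with R1881, and the treatments overlapped. HPGD changed by 2.18 to 5.26 in LNCaP, a difference of -2.91. MMP16, a membrane metalloproteinase, and SLITRK3, a neuronal adhesion protein, fell in all 6 LNCaP pairs, by 2.83 and 2.12 on average. In VCaP both were below the filter on low signals, with changes of -0.45, 0.34 and -0.53 and of 0.51, 0.80 and 0.36. UGT2B28, an androgen-glucuronidating enzyme with near-identical relatives, also lay below that filter. Its difference of -2.89 (adjusted p = 0.037) did not pass when any VCaP pair was left out (0.116, 0.121 and 0.0973).

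**Figure D5:**
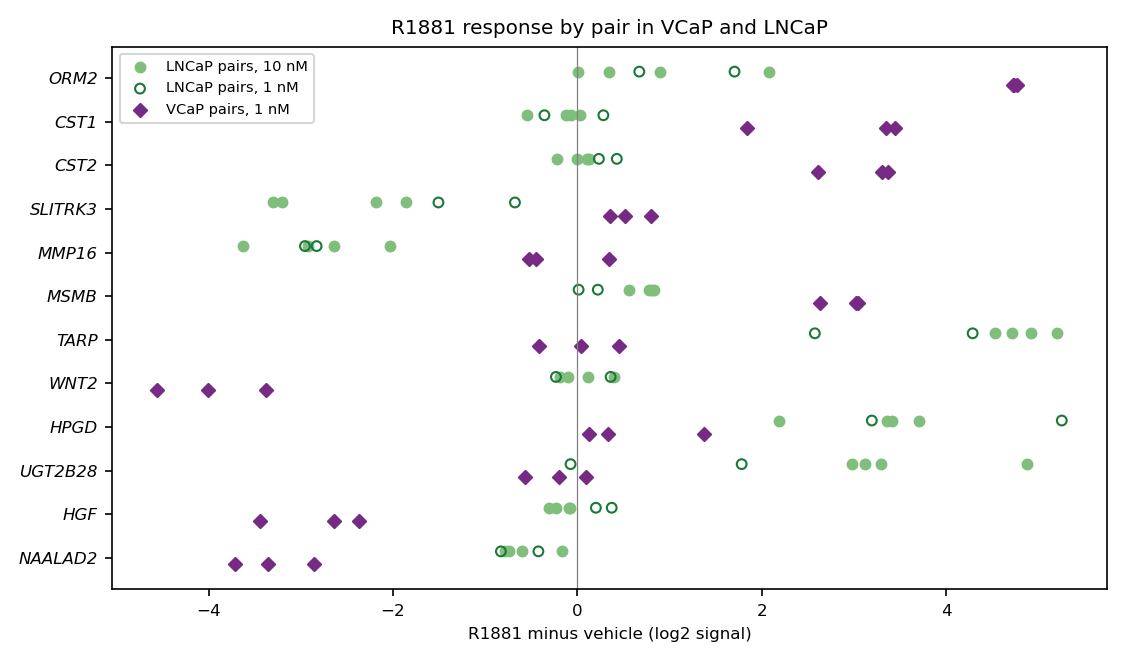
Change with R1881 (log2 signal) in the 6 LNCaP pairs (filled circles 10 nM, open circles 1 nM) and the 3 VCaP pairs (diamonds, 1 nM) for the 6 genes most positive and the 6 most negative in VCaP relative to LNCaP. The 3 VCaP points of WNT2, HGF and NAALAD2 lie below all 6 LNCaP points, and those of ORM2, CST1, CST2 and MSMB above them; UGT2B28 overlaps.

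As a list, the androgen-induced genes rose less in VCaP, though not every member did. Its members were chosen with earlier results of these data known, LNCaP included, so the count below is a description. The list includes TARP, PLPP1, ZBTB10 and HPGD, which did not pass in VCaP. The list's median was 0.98, 1.06 and 1.22 in the VCaP pairs and 1.82 to 2.72 in the LNCaP pairs, and 12 of 24 members passed the difference test as less positive in VCaP (6.33% of all genes did), 7 without the VCaP siControl pair. CENPN, a centromere protein gene, rose by 0.61 in VCaP and 2.80 in LNCaP. KLK3 rose by 2.09 and 1.54, with a difference of 0.55 that did not pass (SE 0.38, adjusted p = 0.405), and STEAP4 by 5.60 and 5.93.

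Replication genes fell more in VCaP: 31 of the 40 passed the difference test (6.33% of all genes did). The LNCaP pairs were not alike, however. The list's median was 0.10 and -0.11 in set 1, 0.30 and 0.04 in set 2, and -0.93 and -0.53 in set 3, against -1.54, -1.15 and -1.05 in VCaP. MCM2 in LNCaP changed by 0.12, -0.20, 0.05 and 0.14 in sets 1 and 2 but by -1.07 and -0.90 in set 3. Set 3 was treated at 10 nM like set 1, and why it differs was not tested. The count of 31 was 6 without the VCaP siControl pair, 18 without siCTBP1-AS, 20 without siPSF, 20 with the array set as the block, 13 with the siControl LNCaP pairs alone and 34 with the 1 nM pairs alone. Mitosis genes followed the same order of sets, with medians of 0.12, -0.06, 0.10, 0.05, -0.65 and -0.54 in LNCaP. The median of the cholesterol synthesis genes rose in every pair of either line, by 0.22 to 0.80 in LNCaP and 0.78 to 0.97 in VCaP, though not every member did.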

How the data were processed

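The values are log2 signals per transcript cluster of a gene-level array, deposited by the authors. The submitters' processing notes name RMA in Expression Console 1.1.1 (Affymetrix). The grouping of arrays for RMA is not given in these sources. Set medians were 6.70, 5.73 and 6.79 in LNCaP and 6.25 in VCaP, so only changes within a pair were compared across sets, and values were not normalized again. Of 33297 clusters, 19460 had 1 gene symbol, 1754 several and 12083 were unlisted. Each of 18417 genes took its cluster with the highest mean, and the 25% of genes with the lowest mean were left out of each fit. A listed gene without a cluster of its own was not analysed here.

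R1881 was tested with lmFit and eBayes of limma 3.58.1 in R 4.3.3, with siRNA as a block in VCaP (2 residual degrees of freedom) and with the pair as a block over all 18 arrays (7). The siRNA label pairs the arrays: 1 vehicle and 1 R1881 array share each siRNA. The p-values were adjusted by Benjamini-Hochberg over all genes, and both fits were tested on simulated data. The simulation gave a changed gene the same change in every VCaP pair, so it did not cover responses that differ between siRNAs. Genes were named by rule: the 15 in each direction with the largest change in their weakest pair, the 6 in each direction differing most from LNCaP, the 5 of widest range and members of gene lists. The members and lists were chosen with earlier results of these data known. Alternatives changed the filter, normalization, cluster choice, variance trend, block, threshold and pairs used.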

Additional observations from a re-analysis of the deposited data

Results flagged for a closer look

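The R1881 response differed between VCaP and LNCaP in 1599 genes, by the test of the difference itself. Among the genes named above, the VCaP response was more positive by 3.79 log2 units for ORM2, 3.01 for CST1, 2.99 for CST2, 2.68 for SLITRK3, 2.62 for MMP16, 2.37 for MSMB, 2.13 for RFPL2, 2.09 for PLA2G4E, 2.06 for ENTREP1, 1.95 for MYOF, 1.76 for SLC26A2, 1.16 for EFCAB12 and 1.02 for BMPR1B. It was more negative for TARP (-4.35), WNT2 (-4.04), HPGD (-2.91), UGT2B28 (-2.89), HGF (-2.80), NAALAD2 (-2.72), PPFIA2 (-2.49), SHH (-2.27), TTR (-2.26), SYTL2 (-2.20), DTL (-2.15) and MCAM (-2.12). SLITRK3 and MMP16 stand among the positive ones because they fell in LNCaP, and TARP, HPGD and UGT2B28 among the negative ones because they rose there. Adjusted p-values in limma ran from 3.81e-06 for SHH to 0.037 for UGT2B28. The filter used the mean over all 18 arrays, so a gene with signal in only a single line could pass it. SLITRK3, MMP16 and UGT2B28 lay below the filter in VCaP, and LNCaP signals are not given here. For those genes in VCaP, and for genes near 0 in LNCaP, low signal and lack of response cannot be told apart. Cell line, serum, array set and, for 4 of the 6 LNCaP pairs, the dose of R1881 differ together. No group held 4 or more arrays, so outlying arrays were not looked for.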

How the results depend on the processing

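The 4074 genes of the VCaP response became 2227 with no replicate block and 587 when a mean change over 1 was also required, and 2597 to 3053 when 1 pair was left out. With no filter, the lowest 50% left out, arrays quantile-normalized again, the mean over clusters or an intensity trend, the count was 3689, 3803, 4276, 4082 and 4609. The 328 genes over 1 in all pairs became 262 to 335 under another filter, normalization or cluster rule, and 361 to 461 when only 2 pairs had to pass. The 1599 genes that differed between lines became 482 with no replicate block, 546 to 1021 when 1 VCaP pair was left out, 748 with the siControl LNCaP pairs and 773 with the 1 nM pairs. Of 306 recomputed responses of single named genes, 302 stayed past the threshold, with PLK2 and SLC4A4 as exceptions. Of 120 recomputed line differences 117 did, with UGT2B28 as the exception. None changed direction. A fit on 2 pairs leaves 1 residual degree of freedom, and the cause of these shifts was not tested.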

Other observations

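Further gene lists, described with their share passing the test in VCaP (13.7% of all genes were higher and 15.8% lower), gave smaller or divided responses. Of 24 immediate early genes, which respond within minutes to growth signals, 11 were higher and 3 lower. NR4A1, an orphan nuclear receptor, rose by 0.94 on average and its relative NR4A2 fell by 1.58. The count of 11 was 1 without the siRNA block and 7 and 6 without the siCTBP1-AS or siPSF pair. It was 6 with the lowest 50% of genes left out, where members below that filter were untested. The 3 lower were 1 without the block. Of 26 genes of TGF-beta and BMP signalling, 6 were higher and 4 lower, with BMP7 at -1.35 and SMAD3 at -0.98. Of 14 genes of epithelial and mesenchymal state, 2 were higher and 3 lower. SNAI2, a repressor of E-cadherin, rose by 1.77, 2.03 and 2.06, and CDH2, CDH3 and FN1 fell by 1.24, 1.15 and 1.07. With the lowest 50% left out 0 were counted as lower, but members below that filter were then untested, so this does not say that their falls were lost. Of 14 neuroendocrine genes, 2 were higher and 7 lower, with ENO2 at -0.90, NCAM1 at -0.53 and SYP, synaptophysin, at 0.50, and 4 were lower without the siControl pair, without the siPSF pair or without the block. Of 9 genes of steroid reception and metabolism, 1 was higher (NR3C2, 0.48) and 2 lower (HSD17B6, -1.66, and AKR1C3, -0.74).

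In metabolism, 7 of 26 glycolysis and hypoxia genes were higher and 4 lower, with PFKFB2, which makes an activator of glycolysis, at 1.87, 1.84 and 1.78 and LDHA at -0.03. The 4 lower were 2 without any 1 pair or without the block. Of 11 polyamine genes 4 were higher, led by SAT1 (1.18) and ODC1 (1.11), and 0 lower. Of 18 amino acid response genes, 4 were higher and 2 lower, and the 4 were 2 without the siCTBP1-AS or siPSF pair and 0 without the block. Of 17 genes of PI3K signalling, 4 were higher and 2 lower. INPP4B, a lipid phosphatase, passed at 0.97, 0.92 and 0.08, and the 4 were 2 without the siControl or siCTBP1-AS pair and 0 without the block. Of 19 apoptosis regulators, 2 were higher and 4 lower, with BCL2L1 at 0.86 and FAS, a death receptor, at -1.28, and the 4 lower were 2 without the siControl pair and 1 without the siPSF pair or the block. Of 9 siRNA targets and partners, HDAC2 and NONO were lower, by 0.47 and 0.33.

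Outside the lists, and picked after their values were seen, genes of DNA repair and chromosome cohesion stood among the 171 genes over 1 lower in all pairs, such as EXO1 (mean change -2.03), BRIP1 (-1.89), XRCC2 (-1.72), CHEK1 (-1.52) and ESCO2 (-1.48). So did 3 neighbouring entries of one host transcript, MIR99AHG (-1.90), MIRLET7C (-1.67) and MIR99A (-1.54), where an array of this kind reads the long transcript and not the mature microRNA.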
